A study of Mus musculus with 12 samples.

Results

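The comparison is between CD4 T effector cells recovered from pancreatic islets and CD4 T effector cells recovered from the spleens of the same 3 recipient mice, for cells grown from Y16A donors. It rests on 6 of the 12 libraries of the series, 3 islet and 3 spleen, chosen by their titles (pancreas or spleen of mice Y16A-1, Y16A-2 and Y16A-3, called mice 1, 2 and 3 here). The other 6 are the same tissues of 3 recipients of cells from NOD donors (WT origin). Donors were female NOD.InsY16A transgenic mice for Y16A origin and female NOD mice for WT origin, in both aged 6 to 8 weeks and immunised with the insulin variant C19A. Their splenocytes were cultured for 2 weeks with 10 µM peptide, and CD4 cells were then purified with magnetic beads to over 95%, with under 1% Foxp3+ cells. Each recipient of either origin was a female NOD.scid mouse of 8 to 10 weeks and received 5000000 cells. The islet and spleen groups therefore share donor strain, immunisation, culture, host and mouse, and differ in the organ of recovery. Any difference in how cells were freed from the organ goes with it, and the design cannot tell these apart. The labels name no sort of the recovered cells, no interval between transfer and recovery, and not whether the recipients of an origin received cells of 1 culture, so p-values here measure the spread between recipients. The genotype entry gives NOD for every islet library and NOD.Y16A for every spleen library, against the titles and the design text, which were followed.

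NOD mice develop autoimmune diabetes in which CD4 T cells that recognise an insulin B chain peptide infiltrate the islets. The Y16A transgene encodes insulin with alanine in place of a tyrosine that T cell receptors contact on this peptide. NOD.scid mice make no T or B cells of their own but keep granulocytes, macrophages, NK cells and red cell precursors, so a spleen cell preparation from them can hold these types beside the transferred T cells. In T cells, a T cell receptor that meets its peptide switches on immediate early transcription factors, NF-kappaB and MAP kinase feedback inhibitors, and cytokine genes. Cells that circulate through lymphoid organs carry the chemokine receptor Ccr7, which cells retained in inflamed tissue usually lack.

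All 6 libraries carried T cell transcripts. Cd3e, a signalling chain of the T cell receptor, had 501, 373 and 344 FPKM in islet, against 299, 218 and 272 FPKM in spleen (values of mice 1, 2 and 3 in this order throughout). Cd4 had 129, 112 and 98.04 FPKM in islet, against 117, 67.5 and 88.5 FPKM in spleen. Cd8a was listed at 0, 7.66 and 0 FPKM in islet, against 0, 1.59 and 0.439 FPKM in spleen, and the regulatory T cell factor Foxp3 at 1.75, 0 and 0 FPKM in islet, against 2.88, 0.445 and 1.8 FPKM in spleen. The B cell gene Pax5 was listed at 0 in the 6 libraries, and Ncr1, an NK cell receptor, in all but the spleen library of mouse 1 (3.01 FPKM). Other genes of these cells were detected. The B cell gene Ms4a1 had 0.117, 0.375 and 1.43 FPKM in islet, against 0, 0 and 1.93 FPKM in spleen. The NK cell gene Klrb1c had 0.739, 0.852 and 0.178 FPKM in islet, against 0, 0.0459 and 0.593 FPKM in spleen. FPKM are fragments scaled to transcript length and library depth. The depth estimated from the steps of low FPKM values was 6010000, 6740000 and 8810000 fragments in islet, against 4560000, 8390000 and 7590000 fragments in spleen, where 3 fragments on 1500 bases equal 0.227 to 0.439 FPKM. Genes at 1 FPKM or more numbered 8372 to 8641 in islet and 8033 to 8123 in spleen. A listed 0 is not always absence of RNA, since Rpl5, a ribosomal protein gene that every cell uses, was listed at 0 in the 6 libraries. Gapdh was listed at 0.986, 1.63 and 0.121 FPKM in islet, against 1.9, 0 and 0 FPKM in spleen. Across genes, log2 values of 2 islet libraries correlated at 0.880 to 0.901 and those of 2 spleen libraries at 0.847 to 0.866. Those of the islet and spleen library of 1 mouse correlated at 0.827 to 0.851. This describes similarity only, as genes are not replicates.

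The filter of 1 FPKM or more in 3 or more of the 12 libraries left 10044 genes. Between islet and spleen limma called 133 of them (1.32%), 106 higher in islet (1.06%) and 27 lower (0.269%). The threshold was a Benjamini-Hochberg adjusted p under 0.05 over all 10044. The fit held the mouse as a block on log2(FPKM + 1) and shared the spread of the 12 libraries. An unadjusted p under 0.05 was reached by 1143 genes. Each of the 106 was higher and each of the 27 lower in islet in 3 of 3 mice, and the islet values lay wholly above the spleen values for 105 of the 106 and wholly below for 26 of the 27. Over all tested genes the islet values lay wholly above for 14.6% and wholly below for 3.69%. The called genes were picked by p-values from these same values, so their agreement between mice is no separate support. With 1 mouse left out, 62 to 81 of the 133 kept their call. Log2 changes below are islet minus spleen, less the median change of genes with a mean above 5 FPKM (0.32). The p-values come from the fit before that step. On this scale the median of all tested genes was -0.09. With each library centred on its median, 113 genes were called, 73 higher and 40 lower, and with quantile normalization 125, 76 higher and 49 lower, so that the share of higher calls was 64.6% and 60.8% in place of 79.7%. In bulk RNA such as this, fewer cells of a type and less RNA per cell cannot be told apart.

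**Figure D1:**
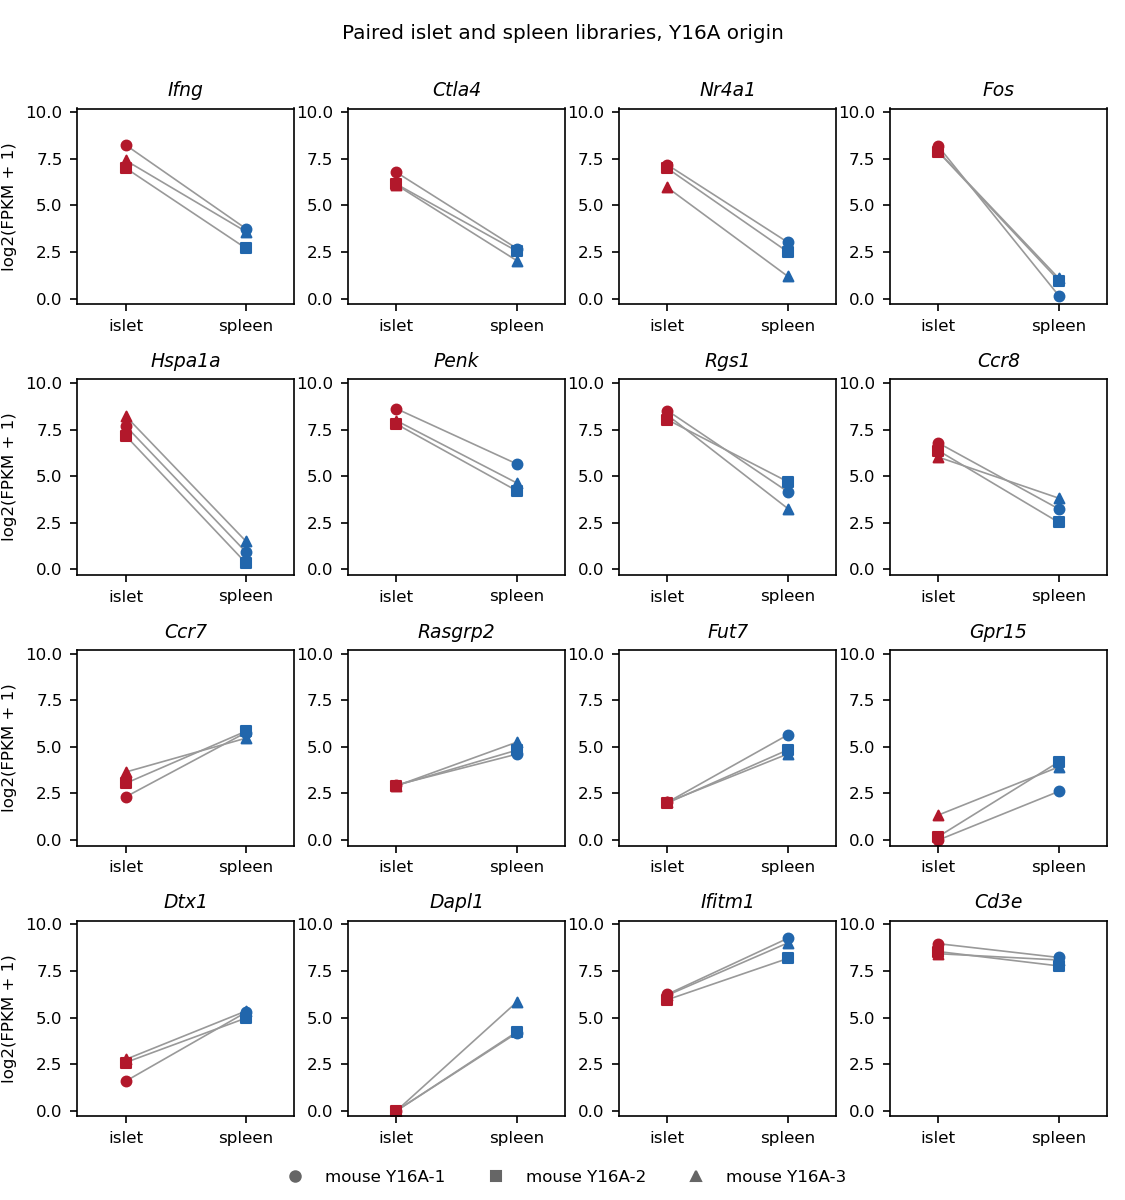
Values of 16 genes by library. Each panel shows log2(FPKM + 1) in islet (red, left) and spleen (blue, right), with a grey line joining the libraries of 1 mouse and a marker shape per mouse. Ifng, Ctla4, Nr4a1, Fos, Hspa1a, Penk, Rgs1 and Ccr8 were higher in islet in 3 of 3 mice and Ccr7, Rasgrp2, Fut7, Gpr15, Dtx1, Dapl1 and Ifitm1 lower, while Cd3e did not pass (limma adjusted p 0.253).

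Of 19 tested genes that antigen receptor signals induce, 3 rose in islet and 0 fell. The list median was 0.71 on the log2 scale against -0.09 for all tested genes, and 12 lay wholly above their spleen values. Over all tested genes 1.06% were called higher, 0.269% called lower and 14.6% lay wholly above. Wholly above is counted on values before the median shift, which favours islet, here and for the lists below. Nr4a1, an orphan nuclear receptor induced within hours of receptor engagement, had 144, 126 and 61.3 FPKM in islet, against 7.09, 4.66 and 1.28 FPKM in spleen. Its lowest islet value, in mouse 3, belonged to the mouse with its lowest spleen value, and the groups lay far apart (log2 change 4.15, SE 0.39, limma adjusted p 1.86e-05). Cd69, which keeps activated lymphocytes in tissue by blocking the egress receptor S1pr1, had 95.1, 97.9 and 72.2 FPKM in islet, against 12.4, 25.1 and 12.1 FPKM in spleen. The islet values stood close together, each more than the highest spleen value, that of mouse 2 (log2 change 2.09, SE 0.33, limma adjusted p 0.00128). Tnfrsf4, the costimulatory receptor OX40, had 234, 197 and 199 FPKM in islet, against 73.2, 60.4 and 56.6 FPKM in spleen, with little spread in either tissue (log2 change 1.39, SE 0.24, limma adjusted p 0.00158). Of the members that did not pass, the zinc finger factors Egr1 and Egr2 had values in the same direction in 3 of 3 mice. Their relative Egr3, which the filter removed, had 1.70, 0.258 and 0.477 FPKM in islet, against 0, 0 and 0.817 FPKM in spleen. Egr1 had 29.7, 10.5 and 20.99 FPKM in islet, against 3.28, 6.89 and 2.2 FPKM in spleen (1.73, adjusted p 0.0699). Egr2 had 10.7, 8.3 and 5.91 FPKM in islet, against 3.24, 0.428 and 0.415 FPKM in spleen (1.83, adjusted p 0.107). The costimulatory receptor Icos had 60.6, 46.6 and 43.2 FPKM in islet, against 11.5, 28.6 and 39.99 FPKM in spleen (0.71, adjusted p 0.33).

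AP-1 and other early-response genes had 9 of 19 tested called higher and 0 lower (median 1.54), where 1.06% of all tested genes were called higher. Islet values lay wholly above for 18 of 19, against 14.6% of all tested genes. Fos, the AP-1 subunit with the fastest induction, had 288, 234 and 237 FPKM in islet, against 0.116, 0.953 and 1.12 FPKM in spleen. The islet libraries were alike and the spleen libraries near the level of a few fragments (log2 change 6.92, SE 0.40, limma adjusted p 3.94e-07). Junb had 542, 381 and 479 FPKM in islet, against 34.4, 37.8 and 43.5 FPKM in spleen, again with no overlap and little spread within either tissue (log2 change 3.23, SE 0.27, limma adjusted p 5.56e-06). Jun had 57.97, 50.6 and 54.003 FPKM in islet, against 2.37, 3.36 and 4.15 FPKM in spleen (log2 change 3.38, SE 0.49, limma adjusted p 9.91e-04). Jund, the AP-1 subunit that resting cells also make, had 195, 167 and 137 FPKM in islet, against 59.5, 33.1 and 45.1 FPKM in spleen, a smaller change (log2 change 1.54, SE 0.29, limma adjusted p 0.00413). Gadd45b, an activator of stress kinases, had 195, 103 and 129.6 FPKM in islet, against 5.05, 12.3 and 3.37 FPKM in spleen, highest in islet of mouse 1 (3.97, adjusted p 0.0013). Ppp1r15a, which ends the translational stress response, had 87.3, 48.4 and 54.6 FPKM in islet, against 12.4, 4.0 and 4.17 FPKM in spleen, with the highest value of each tissue in mouse 1 (2.82, adjusted p 4.39e-04). Klf6, a zinc finger factor, had 213, 153 and 94.8 FPKM in islet, against 43.1, 16.9 and 17.8 FPKM in spleen, also highest in mouse 1 in both tissues (2.25, adjusted p 0.00147). Gadd45g (1.86, adjusted p 0.0121) and the nuclear protein gene Ier2 (1.31, adjusted p 0.0109) rose too. The call of Ier2 did not hold when any 1 mouse was left out (limma adjusted p 0.0712 to 0.108). That of Gadd45g was lost without mouse 1 (limma adjusted p 0.0909), or without mouse 2 (limma adjusted p 0.132). That of Jund was lost without mouse 2 (limma adjusted p 0.0684). The other 10 tested members did not pass. Acinar markers were also higher in islet, with values given below, and their part in these results was not tested, nor was that of tissue handling.

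Of 18 tested heat shock genes, which encode chaperones that refold damaged proteins, 5 rose in islet and 0 fell (median 0.53, 8 wholly above). The shares over all tested genes were 1.06% called higher and 14.6% wholly above. Among the heat shock genes, the inducible Hsp70 genes had the largest changes. Hspa1a had 207, 144 and 299.97 FPKM in islet, against 0.896, 0.259 and 1.83 FPKM in spleen (log2 change 6.46, SE 0.38, limma adjusted p 3.94e-07). Hspa1b had 171, 165 and 248 FPKM in islet, against 0.793, 0.946 and 3.68 FPKM in spleen (log2 change 5.92, SE 0.40, limma adjusted p 1.53e-06). In both tissues mouse 3 had the highest value of each copy, and the groups were far apart. These copies are nearly identical, and the split of reads between them is uncertain. Their co-chaperone Dnajb1 had 63.2, 47.8 and 74.4 FPKM in islet, against 9.16, 6.72 and 7.01 FPKM in spleen (log2 change 2.53, SE 0.38, limma adjusted p 0.0011). The small heat shock protein gene Hspb1 was listed at 0 in the 3 spleen libraries and had 1.92, 12.5 and 7.74 FPKM in islet, lowest in mouse 1 (limma adjusted p 0.0236). Hsp90ab1, the constitutive Hsp90, had 282, 235 and 287 FPKM in islet, against 114, 115 and 134 FPKM in spleen, a small and even difference (log2 change 0.82, SE 0.24, limma adjusted p 0.0287). The call of Hsp90ab1 did not hold when any 1 mouse was left out (limma adjusted p 0.132 to 0.262). That of Hspb1 was lost without mouse 2 (limma adjusted p 0.211), or without mouse 3 (limma adjusted p 0.138). The other 13, constitutive Hspa8 and the mitochondrial pair Hspd1 and Hspe1 among them, did not pass. Hspa8 had 14.003, 15.8 and 14.7 FPKM in islet, against 7.87, 3.55 and 7.96 FPKM in spleen (0.83, adjusted p 0.351). Hspd1 had 5.37, 5.93 and 9.76 FPKM in islet, against 4.89, 6.18 and 0.935 FPKM in spleen (0.52, adjusted p 0.594).

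The proximal promoters of 4 genes called higher in islet are shown for the motifs they hold, so they do not stand for the called genes in general. They are the 150 bases just before the RefSeq start site on GRCm38.p6, 5′ to 3′ on the gene's strand, for Hspa1a (chr17:34972157-34972306, minus strand), Hspa1b (chr17:34959239-34959388, minus strand), Hspb1 (chr5:135887769-135887918, plus strand) and the MAP kinase phosphatase gene Dusp1 (chr17:26508473-26508622, minus strand). Capitals mark GAANNTTC, the inverted half-site pair of the heat shock element, in the heat shock genes, and TGACGTCA, the cyclic AMP response element, in Dusp1.
Hspa1a: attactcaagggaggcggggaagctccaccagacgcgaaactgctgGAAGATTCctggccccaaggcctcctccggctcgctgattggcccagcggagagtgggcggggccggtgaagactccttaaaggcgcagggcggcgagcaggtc
Hspa1b: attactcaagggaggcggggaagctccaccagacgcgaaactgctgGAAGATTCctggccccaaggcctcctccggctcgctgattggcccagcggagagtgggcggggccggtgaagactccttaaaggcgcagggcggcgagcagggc
Hspb1: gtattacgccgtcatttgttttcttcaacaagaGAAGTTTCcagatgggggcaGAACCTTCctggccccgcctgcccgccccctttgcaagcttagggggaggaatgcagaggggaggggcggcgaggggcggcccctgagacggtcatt
Dusp1: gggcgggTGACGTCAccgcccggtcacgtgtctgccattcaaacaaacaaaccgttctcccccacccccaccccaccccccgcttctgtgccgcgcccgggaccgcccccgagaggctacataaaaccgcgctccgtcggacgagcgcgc

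Hspa1a and Hspa1b shared 149 of these 150 bases and held the pair at the same place, beginning 104 bases before the start. Hspb1 held the pair in 2 places, 117 and 97 bases before its start. Searched on both strands over windows from 250 bases before to 50 after the start, GAANNTTC was in 10 of 21 windows of tested heat shock genes (47.6%, 9 of the 15 genes with a window). It was in 7.86% of all 32851 windows of the table, or 5.88% of the windows of tested genes. Dnajb1, which rose, had no match in its window, and Hspd1, Hspe1, Hsph1, Dnaja1, Bag3 and Chordc1, which were not called, had at least 1. Among the 8 called early-response genes with a window, TGACGTCA was in 1, Ppp1r15a (12.5%), and the AP-1 motif TGANTCA in 0. The windows of Fos and Junb, which had large rises, held neither of these motifs nor GAANNTTC. TGACGTCA was in 11.8% of the windows of all tested early-response genes, 2.86% of those of all genes called higher, 3.01% of those of tested genes and 1.79% of all windows. TGANTCA was in 5.88%, 11.4%, 5.03% and 7.81% of these sets in the same order. Such matches describe the letters of the windows and show no binding.

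Of 16 tested NF-kappaB subunits and inhibitors 3 rose and 0 fell (median 0.48). The other 13 did not pass, among them the inhibitors Nfkbib (adjusted p 0.893), Nfkbie (adjusted p 0.632) and Nfkbiz (adjusted p 0.151). Tnfaip3, the ubiquitin-editing enzyme A20, had 70.5, 51.9 and 59.6 FPKM in islet, against 3.39, 1.44 and 1.25 FPKM in spleen, with low spleen values (log2 change 4.08, SE 0.43, limma adjusted p 5.76e-05). Nfkbia, which holds NF-kappaB in the cytoplasm, had 351, 262 and 314 FPKM in islet, against 85.3, 87.2 and 87.5 FPKM in spleen, where the 3 spleen values were nearly equal (log2 change 1.49, SE 0.25, limma adjusted p 0.00158). Nfkbid, a nuclear member of the same family, had 55.5, 38.6 and 29.8 FPKM in islet, against 10.8, 8.79 and 7.76 FPKM in spleen (log2 change 1.70, SE 0.39, limma adjusted p 0.0198). Of 14 tested MAP kinase and cytokine feedback genes 3 rose and 0 fell (median 1.09), all of them dual-specificity phosphatases that switch off MAP kinases. Other phosphatases of this family did not pass, Dusp5 (adjusted p 0.215), Dusp6 (adjusted p 0.326) and Dusp10 (adjusted p 0.757). Dusp1 had 183, 141 and 139.5 FPKM in islet, against 0, 1.78 and 0 FPKM in spleen (log2 change 6.45, SE 0.43, limma adjusted p 1.53e-06). Dusp2 had 192, 125 and 148 FPKM in islet, against 10.1, 41.4 and 24.1 FPKM in spleen, with spleen values spread over a wide range (log2 change 2.43, SE 0.47, limma adjusted p 0.0105). Dusp4 had 5.3, 9.39 and 9.47 FPKM in islet, against 1.03, 0 and 0.768 FPKM in spleen, a low gene (log2 change 2.20, SE 0.54, limma adjusted p 0.0365). The calls of Nfkbid and Dusp4 did not hold when any 1 mouse was left out (limma adjusted p 0.0728 to 0.294). That of Dusp2 was lost without mouse 1 (limma adjusted p 0.0863), or without mouse 3 (limma adjusted p 0.0576). Of the cytokine signalling inhibitors in the list, Socs1 had 35.9, 57.6 and 49.6 FPKM in islet, against 5.37, 32.1 and 19.3 FPKM in spleen and did not pass (1.23, adjusted p 0.0787).

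Secreted products were higher in islet where they were called. Of 21 tested cytokine and chemokine ligand genes 4 rose and 0 fell (median 1.02, 13 wholly above). The shares over all tested genes were 1.06% called higher and 14.6% wholly above. Ifng, which encodes interferon gamma, had 303, 128 and 170.4 FPKM in islet, against 12.4, 5.47 and 11.1 FPKM in spleen. Mouse 1 had the highest and mouse 2 the lowest value in each tissue, and the lowest islet value was far above the highest spleen value (log2 change 3.89, SE 0.36, limma adjusted p 1.57e-05). Penk, the precursor of the opioid enkephalins, had 392, 221 and 251 FPKM in islet, against 49.3, 17.5 and 23.8 FPKM in spleen, with the same order of mice in both tissues (log2 change 2.98, SE 0.36, limma adjusted p 1.80e-04). The chemokine gene Ccl4, a product of activated T cells, had 211, 235 and 204 FPKM in islet, against 53.8, 11.2 and 74.2 FPKM in spleen. The islet values were even, while the spleen value of mouse 2 was well under the other two (log2 change 2.23, SE 0.46, limma adjusted p 0.0183). Ltb, a membrane lymphotoxin that sustains lymphoid tissue, had 580.1, 516 and 693 FPKM in islet, against 269.7, 237 and 295 FPKM in spleen, a small difference with tight groups (log2 change 0.83, SE 0.19, limma adjusted p 0.00686). The call of Ltb did not hold when any 1 mouse was left out (limma adjusted p 0.0593 to 0.0733). That of Ccl4 was lost without mouse 1 (limma adjusted p 0.064), or without mouse 2 (limma adjusted p 0.0543). Other ligands did not pass. The chemokine gene Ccl3 had 35.9, 71.2 and 50.6 FPKM in islet, against 17.8, 0 and 6.33 FPKM in spleen (adjusted p 0.16). Ccl5, a chemokine that effector T cells hold ready, had 2870.3, 2411 and 2030.4 FPKM in islet, against 1825, 860.5 and 1529 FPKM in spleen (adjusted p 0.0801). Il2, the T cell growth factor, had 4.97, 9.13 and 4.06 FPKM in islet, against 0, 1.17 and 2.06 FPKM in spleen (adjusted p 0.152). These 3 were higher on average in islet without passing the test. Tnf had 30.1, 20.7 and 19.6 FPKM in islet, against 13.5, 8.74 and 1.72 FPKM in spleen (adjusted p 0.155). Il21, a helper cytokine for B cells, was listed at 3.92, 0.147 and 1.91 FPKM in islet, against 0, 0 and 0 FPKM in spleen.

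Ifng marks the Th1 lineage, whose other genes were listed apart from the ligands. Of 22 tested Th1 and cytotoxic genes 2 rose and 1 fell (median 0.14), and Tbx21, the lineage-defining factor, had 33.7, 22.7 and 29.7 FPKM in islet, against 17.6, 19.6 and 22.9 FPKM in spleen (0.16, adjusted p 0.674). The genes that rose encode granule components. Ctsw, a cathepsin of cytotoxic cells, had 465, 427 and 373 FPKM in islet, against 146, 122 and 162 FPKM in spleen (log2 change 1.23, SE 0.24, limma adjusted p 0.00435). Srgn, the granule proteoglycan serglycin, had 514, 481 and 419 FPKM in islet, against 192, 206 and 252 FPKM in spleen (log2 change 0.80, SE 0.22, limma adjusted p 0.0183). Gzma, a granule protease, went the other way with 21.3, 21.7 and 28.4 FPKM in islet, against 57.8, 42.7 and 115 FPKM in spleen. Its islet values were tight, and its highest spleen value was that of mouse 3 (log2 change -1.77, SE 0.30, limma adjusted p 0.0307). Gzmm, another granzyme outside the list, fell as well with 4.97, 2.87 and 8.48 FPKM in islet, against 17.9, 13.3 and 33.9 FPKM in spleen (log2 change -2.14, SE 0.40, limma adjusted p 0.0417). The calls of Gzma and Gzmm did not hold when any 1 mouse was left out (limma adjusted p 0.0663 to 0.253). Those of Ctsw and Srgn were lost without mouse 1 (limma adjusted p 0.0611 and 0.234), or without mouse 2 (limma adjusted p 0.0653 and 0.141). Gzmb, which triggers death of target cells, had 38.5, 18.96 and 22.8 FPKM in islet, against 49.1, 28.9 and 29.1 FPKM in spleen (-0.75, adjusted p 0.673). Nkg7, a granule membrane protein, had 2097, 1683 and 1684 FPKM in islet, against 1261, 872 and 1205 FPKM in spleen (0.40, adjusted p 0.0725). The NK and CD8 marker list summed to 44.1, 68.5 and 53.8 FPKM in islet, against 98.5, 78.6 and 143 FPKM in spleen, with 1 of 7 tested lower (Gzma). Gzma is itself in these sums and supplies most of their difference, so they are no separate measure of such cells. The other 6 tested members were not called, and the part of NK and CD8 cells in the lower granzymes was not tested.

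Genes of tissue residency had 7 of 17 tested called higher and 0 lower (median 1.16, 12 wholly above). The shares over all tested genes were 1.06% called higher and 14.6% wholly above. Regulators of G protein signalling, which shorten the response of chemokine receptors, made up 3 of the 7. Rgs1 had 366, 261 and 310.3 FPKM in islet, against 16.9, 24.9 and 8.57 FPKM in spleen, with even islet values and its lowest spleen value in mouse 3 (log2 change 3.92, SE 0.43, limma adjusted p 1.39e-04). Rgs16 had 54.4, 83.2 and 29.98 FPKM in islet, against 4.5, 2.02 and 4.16 FPKM in spleen, with a wide spread among islets and no overlap (log2 change 3.25, SE 0.52, limma adjusted p 0.00253). Rgs2 had 49.5, 34.5 and 27.9 FPKM in islet, against 0.0778, 2.76 and 6.66 FPKM in spleen, where the islet and spleen orders of the mice were opposite (log2 change 3.24, SE 0.61, limma adjusted p 0.00969). Bhlhe40, a transcription factor that sustains cytokine production in T helper cells, had 213, 143 and 147 FPKM in islet, against 39.1, 23.9 and 48.9 FPKM in spleen (log2 change 1.85, SE 0.31, limma adjusted p 0.00192). Hopx, a cofactor found in effector cells that persist in tissue, had 93.6, 48.5 and 82.3 FPKM in islet, against 27.1, 21.3 and 27.3 FPKM in spleen (log2 change 1.16, SE 0.30, limma adjusted p 0.0258). P2rx7, a channel opened by extracellular ATP, had 48.1, 32.4 and 34.3 FPKM in islet, against 4.6, 10.6 and 11.97 FPKM in spleen (log2 change 1.71, SE 0.42, limma adjusted p 0.0286). The calls of Hopx and P2rx7 did not hold when any 1 mouse was left out (limma adjusted p 0.0684 to 0.341). Those of Rgs2 and Cxcr6 were lost without mouse 1 (limma adjusted p 0.0935 and 0.0728), or without mouse 2 (limma adjusted p 0.058 and 0.0879). The remaining 10 did not pass. Itgae, the integrin chain CD103, had 2.12, 3.57 and 1.28 FPKM in islet, against 4.16, 2.69 and 1.6 FPKM in spleen (-0.53, adjusted p 0.937). The repressor Prdm1 had 1.93, 2.15 and 1.71 FPKM in islet, against 0.616, 1.08 and 1.62 FPKM in spleen (0.18, adjusted p 0.758).

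Among 11 tested receptors for inflammatory chemokines 3 rose and 0 fell (median 0.24). Ccr8, a receptor of tissue T cells, had 109, 81.9 and 64.1 FPKM in islet, against 8.45, 4.73 and 13.1 FPKM in spleen, clear of overlap by a wide margin (log2 change 2.88, SE 0.38, limma adjusted p 4.25e-04). Cxcr6, whose ligand is made in inflamed tissue and which is also on the residency list, had 438, 277 and 311 FPKM in islet, against 114, 59.2 and 94.3 FPKM in spleen. Mouse 1 was highest and mouse 2 lowest in both tissues (log2 change 1.62, SE 0.33, limma adjusted p 0.00785). The call of Cxcr6 was lost without mouse 1 (limma adjusted p 0.0728), or without mouse 2 (limma adjusted p 0.0879). Cxcr3, the receptor that marks Th1 cells, had 288, 215 and 239 FPKM in islet, against 145, 183 and 199 FPKM in spleen and did not pass (0.17, adjusted p 0.507). Ccr2, a receptor for monocyte chemokines, had 19.98, 18.1 and 17.1 FPKM in islet, against 21.1, 11.7 and 9.41 FPKM in spleen and did not pass (0.11, adjusted p 0.778).

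Inhibitory receptors were called for 2 of 17 tested genes (median 0.04), both higher. Ctla4, which competes for the ligands of Cd28, had 108, 69.7 and 67.6 FPKM in islet, against 5.43, 4.83 and 3.09 FPKM in spleen, the highest value of each tissue in mouse 1 (log2 change 3.59, SE 0.38, limma adjusted p 5.76e-05). Pdcd1, which encodes PD-1, had 97.8, 80.99 and 77.6 FPKM in islet, against 23.6, 32.5 and 30.9 FPKM in spleen (log2 change 1.21, SE 0.30, limma adjusted p 0.021). The call of Pdcd1 did not hold when any 1 mouse was left out (limma adjusted p 0.0806 to 0.256). Other checkpoint genes did not pass. Tigit had 22.7, 10.3 and 18.7 FPKM in islet, against 2.91, 9.95 and 5.58 FPKM in spleen (1.09, adjusted p 0.336). Lag3 had 2.44, 1.17 and 1.5 FPKM in islet, against 0, 0.673 and 1.71 FPKM in spleen (0.36, adjusted p 0.66). The exhaustion factor Tox had 9.96, 7.99 and 1.24 FPKM in islet, against 5.01, 4.4 and 5.4 FPKM in spleen (-0.30, adjusted p 0.99). Of 12 tested genes of regulatory T cells 2 rose, Ctla4 and Ccr8, which activated effector cells also make, and 0 fell (median -0.09). Foxp3, the factor that defines the lineage, was listed at 0 to 1.75 FPKM in islet and 0.445 to 2.88 FPKM in spleen, and Ikzf2 had 2.35, 0.933 and 1.06 FPKM in islet, against 0.936, 0.912 and 1.7 FPKM in spleen (-0.19, adjusted p 0.945). Of 10 tested follicular helper genes the only call was Pdcd1 (median 0.49), while Bcl6, the factor of that lineage, had 4.61, 1.37 and 1.41 FPKM in islet, against 1.15, 2.58 and 0.275 FPKM in spleen (0.24, adjusted p 0.728).

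Some genes of circulation and homing fell in islet, while most of those tested did not pass. Of 18 tested homing genes 4 fell and 0 rose (median -0.74), and of 21 tested naive and memory genes 3 fell and 0 rose (median -0.70), with Ccr7 on both lists. With 1 mouse left out 1 to 3 homing genes and 1 naive and memory gene were lower. Ccr7, which guides cells into lymph nodes, had 3.97, 7.23 and 11.5 FPKM in islet, against 53.6, 56.5 and 43.3 FPKM in spleen, lowest in islet of mouse 1 and highest in islet of mouse 3 (log2 change -3.02, SE 0.45, limma adjusted p 0.00664). Fut7, a fucosyltransferase that builds selectin ligands, had 3.07, 2.97 and 3.09 FPKM in islet, against 49.2, 27.7 and 23.6 FPKM in spleen, the islet values almost equal (log2 change -3.35, SE 0.43, limma adjusted p 0.00169). Gpr15, a homing receptor for the large intestine, was listed at 0, 0.136 and 1.53 FPKM in islet, against 5.11, 17.3 and 14.2 FPKM in spleen (limma adjusted p 0.0042). Dapl1, a gene of resting T cells, was listed at 0 in the 3 islet libraries and had 17.1, 17.9 and 56.5 FPKM in spleen (limma adjusted p 0.00609). Dtx1, a ubiquitin ligase induced in anergic T cells and the 1 call among 13 tested anergy genes, had 2.0, 5.03 and 5.75 FPKM in islet, against 38.04, 30.5 and 39.98 FPKM in spleen (log2 change -3.22, SE 0.41, limma adjusted p 0.00169). The call of Ccr7 was lost without mouse 1 (limma adjusted p 0.0942), or without mouse 2 (limma adjusted p 0.0663). That of Gpr15 was lost without mouse 2 (limma adjusted p 0.0713). That of Dapl1 was lost without mouse 3 (limma adjusted p 0.0623). The factor Klf2, which drives the egress receptor S1pr1, had 66.8, 81.1 and 56.2 FPKM in islet, against 159, 136 and 132 FPKM in spleen. S1pr1 had 26.6, 15.7 and 13.7 FPKM in islet, against 63.04, 44.8 and 46.3 FPKM in spleen. Both lay wholly below in islet and did not pass (-1.39, adjusted p 0.164 for Klf2 and -1.78, adjusted p 0.118 for S1pr1). With median centring both passed (limma adjusted p 0.026 for Klf2 and 0.0324 for S1pr1), and with quantile normalization likewise (0.0186 and 0.0274). The memory factor Tcf7 had 52.1, 35.2 and 34.2 FPKM in islet, against 38.01, 64.2 and 56.5 FPKM in spleen (adjusted p 0.748). The survival receptor gene Il7r had 26.7, 30.5 and 22.4 FPKM in islet, against 42.7, 32.6 and 28.4 FPKM in spleen (adjusted p 0.761). In both the groups overlapped. Some markers of other cells were called lower in islet too, with values given below. They were 3 of 6 tested for neutrophils, 1 of 12 for macrophages and 3 of 9 for red cells and platelets. The part of such cells in these falls was not tested.

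Outside the lists, the called gene with the smallest adjusted p among those lower in islet, other than neutrophil markers, was Ifitm1, an interferon-inducible membrane protein that blocks virus entry. It had 75.3, 61.4 and 72.6 FPKM in islet, against 612, 289 and 515 FPKM in spleen, the islet values alike and the spleen value of mouse 2 lower than the others (log2 change -3.002, SE 0.29, limma adjusted p 1.44e-04). Its neighbour in the family, Ifitm2, had 128, 70.4 and 142 FPKM in islet, against 530.3, 228 and 247 FPKM in spleen (log2 change -1.83, SE 0.27, limma adjusted p 0.0109). The copies are similar, and reads may be shared between them. None of 17 tested type I interferon genes was called (median -0.16), where 1.32% of all tested genes were. Rasgrp2, an exchange factor that activates the integrin switch Rap1 in lymphocytes, had 6.77, 6.61 and 6.51 FPKM in islet, against 23.5, 27.4 and 37.2 FPKM in spleen (log2 change -2.29, SE 0.38, limma adjusted p 0.0183). Magohb, a core protein of the exon junction complex, had 4.3, 0.362 and 2.37 FPKM in islet, against 28.1, 18.2 and 18.2 FPKM in spleen (log2 change -3.25, SE 0.51, limma adjusted p 0.00974). Pdlim4, a cytoskeletal adaptor, had 0.839, 0.315 and 0.848 FPKM in islet, against 8.94, 10.9 and 8.53 FPKM in spleen (log2 change -2.98, SE 0.57, limma adjusted p 0.0346). The calls of Rasgrp2 and Pdlim4 did not hold when any 1 mouse was left out (limma adjusted p 0.0831 to 0.235). That of Ifitm2 was lost without mouse 1 (limma adjusted p 0.173), or without mouse 2 (limma adjusted p 0.11). That of Magohb was lost without mouse 2 (limma adjusted p 0.118).

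**Figure D2:**
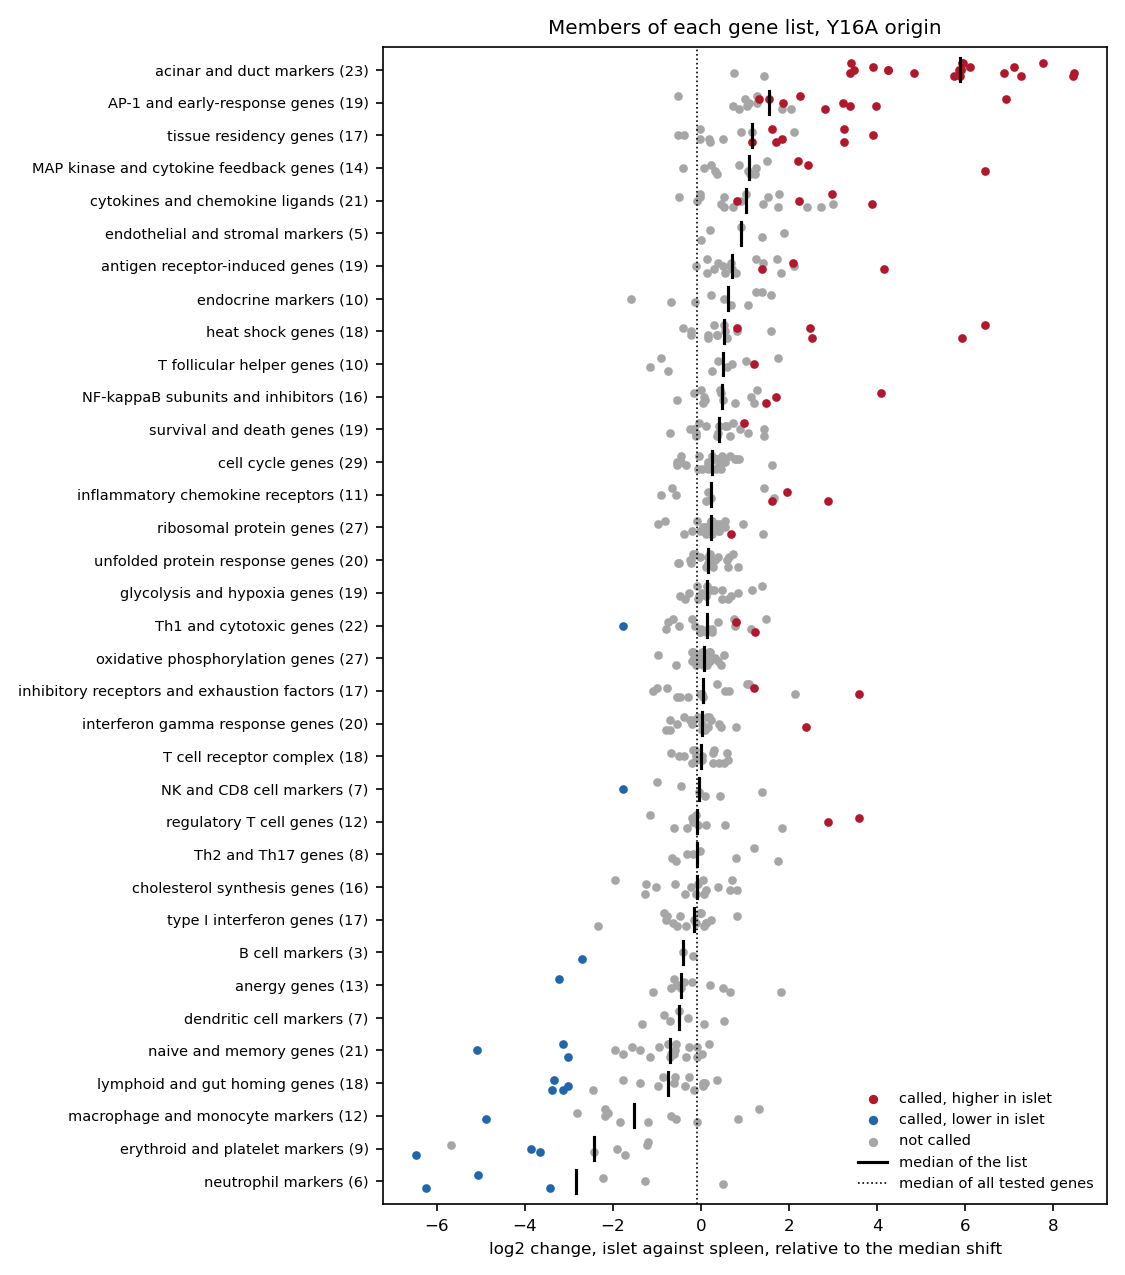
Log2 change of every tested member of 35 gene lists, islet minus spleen, relative to the median shift. Red points are called higher and blue points called lower in islet, and grey points are not called. The black bar is the median of the list, the dotted line the median of all tested genes (-0.09), and the number of tested members stands in brackets. Acinar markers reach the highest values with 20 of 23 called, and the neutrophil list has the lowest median (-2.83). Both are partly fixed by the filter on low values.

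Lists of basal machinery held few or no calls, which is near the share called among all tested genes (1.32%). Of 18 tested genes of the T cell receptor complex 0 were called (median 0.00). The same held for 29 cell cycle genes (median 0.26), 27 oxidative phosphorylation genes (median 0.06) and 19 glycolysis and hypoxia genes (median 0.14). It also held for 16 cholesterol synthesis genes (median -0.09), 20 unfolded protein response genes (median 0.16) and 8 Th2 and Th17 genes (median -0.09). Mki67, a protein of dividing cells, had 4.42, 5.28 and 3.47 FPKM in islet, against 1.68, 2.18 and 0.706 FPKM in spleen (0.81, adjusted p 0.371). The hypoxia factor Hif1a had 30.7, 17.5 and 24.5 FPKM in islet, against 6.72, 5.56 and 7.57 FPKM in spleen (adjusted p 0.0813). The glycolytic enzyme gene Tpi1 had 96.2, 49.96 and 69.03 FPKM in islet, against 26.3, 26.9 and 19.8 FPKM in spleen (adjusted p 0.0699). The islet values of both lay wholly above those of spleen, and neither gene passed. With the filter at a mean of 5 FPKM or more both were called higher, 2 of 11 tested genes of that list. Of 27 tested ribosomal protein genes 1 rose, Rplp1 (413, 298 and 411 FPKM in islet, against 157, 191 and 209 FPKM in spleen, log2 change 0.67, SE 0.21, limma adjusted p 0.0363). Of 20 tested interferon gamma response genes 1 rose, the chemokine gene Cxcl10 (10.99, 28.4 and 18.95 FPKM in islet, against 0, 2.88 and 5.43 FPKM in spleen, log2 change 2.39, SE 0.46, limma adjusted p 0.00782). The factor Irf1 had 142, 85.4 and 78.3 FPKM in islet, against 87.4, 54.3 and 71.9 FPKM in spleen (0.16, adjusted p 0.513). Of 19 tested survival and death genes 1 rose, Bcl2a1b (465, 427 and 390.0 FPKM in islet, against 138, 169.9 and 218 FPKM in spleen, log2 change 0.98, SE 0.26, limma adjusted p 0.0247). This antiapoptotic gene has similar copies, and reads may be shared between them. The call of Rplp1 did not hold when any 1 mouse was left out (limma adjusted p 0.0757 to 0.392). Those of Cxcl10 and Bcl2a1b were lost without mouse 1 (limma adjusted p 0.103 and 0.296), or without mouse 2 (limma adjusted p 0.0872 and 0.151). Among the anergy genes other than Dtx1, Izumo1r had 26.8, 50.4 and 32.8 FPKM in islet, against 16.04, 35.9 and 24.7 FPKM in spleen (0.20, adjusted p 0.574).

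Transcripts of other cells differed between the tissues as well. Pancreatic acinar and duct markers summed to 1748, 4564 and 3589 FPKM in islet, against 9.47, 8.61 and 10.8 FPKM in spleen. Of 23 tested markers 20 rose and 0 fell (median 5.88), and all 23 lay wholly above their spleen values. With so little of this RNA in spleen, members passed the filter mostly through islet libraries, so these counts are partly fixed by it. Clps, the colipase that pancreatic lipase needs, had 388, 600.4 and 605 FPKM in islet, against 0.664, 0 and 0 FPKM in spleen (log2 change 8.46, SE 0.47, limma adjusted p 3.94e-07). Ctrb1, a chymotrypsinogen, had 194, 836 and 457 FPKM in islet, against 2.1, 0.168 and 0 FPKM in spleen (log2 change 7.77, SE 0.62, limma adjusted p 1.51e-05). Within islet, mouse 1 had the lowest level of both. The duct keratin gene Krt19 was listed at 0, 2.11 and 0 FPKM in islet and 0 in the 3 spleen libraries. Reg genes, which pancreatic acinar cells switch on in inflammation, followed the same pattern. Reg3b had 64.2, 211 and 177 FPKM in islet, against 0.347, 0 and 0.201 FPKM in spleen (log2 change 6.52, SE 0.56, limma adjusted p 1.08e-05). Reg2 had 52.5, 239.9 and 130.2 FPKM in islet, against 1.03, 0 and 0 FPKM in spleen (log2 change 6.23, SE 0.54, limma adjusted p 1.05e-05). Reg3a had 34.9, 64.5 and 51.6 FPKM in islet and was listed at 0 in spleen (limma adjusted p 1.08e-04). Close relatives among the Reg and trypsinogen genes can share reads, so the level of a single copy is uncertain. Endocrine RNA was low in these libraries. Ins2, a mouse insulin gene, was listed at 0, 0 and 26.2 FPKM in islet, against 0, 0.522 and 0 FPKM in spleen. Ins1 was listed at 0, 0.396 and 17.5 FPKM in islet, against 0, 0 and 0 FPKM in spleen. Both insulin genes stood out in the islet library of mouse 3 and in no other of the 6 libraries. Of 10 tested endocrine markers 0 were called, and the list summed to 17.3, 11.3 and 63.2 FPKM in islet, against 10.7, 6.87 and 12.6 FPKM in spleen.

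Some markers of blood cells were lower in islet. Members under 1 FPKM in the 3 islet libraries could pass the filter only through other libraries. The counts and medians of these lists are therefore partly fixed by it. Neutrophil markers summed to 7.12, 9.9 and 2.77 FPKM in islet, against 106, 95.3 and 188 FPKM in spleen, with 3 of 6 tested lower and 0 higher (median -2.83). S100a9, a calprotectin subunit that neutrophils hold in bulk, was listed at 0 in the 3 islet libraries and had 54.2, 54.5 and 73.5 FPKM in spleen (limma adjusted p 5.56e-06). Its partner S100a8 was listed at 0, 0 and 2.41 FPKM in islet, against 17.6, 35.5 and 94.1 FPKM in spleen (limma adjusted p 7.31e-05). Camp, an antimicrobial peptide gene, was listed at 0 in islet and had 25.6, 3.96 and 3.92 FPKM in spleen (limma adjusted p 0.0151). Erythroid and platelet markers summed to 8.03, 12.7 and 35.9 FPKM in islet, against 1182, 126 and 2389 FPKM in spleen, with 3 of 9 tested lower and a low spleen value in mouse 2. The 3 were the globin copies Hbb-b1 (0, 0 and 6.98 FPKM in islet, against 193, 31.3 and 451 FPKM in spleen) and Hbb-b2, whose similar copies may share reads, and Car2. This carbonic anhydrase of red cells was listed at 0.468, 0 and 0.163 FPKM in islet, against 14.8, 4.55 and 29.02 FPKM in spleen. Macrophage and monocyte markers summed to 213, 132 and 159 FPKM in islet, against 746, 363 and 281 FPKM in spleen, with 1 of 12 tested lower. This was Tyrobp, the DAP12 signalling adaptor, listed at 0, 0 and 5.41 FPKM in islet, against 69.98, 48.4 and 23.05 FPKM in spleen (limma adjusted p 0.00435). Of the 12, 6 were lower and 2 higher in islet in 3 of 3 mice. Members that did not pass the filter went both ways. Csf1r, a defining macrophage receptor, was listed at 0, 0 and 0.265 FPKM in islet, against 1.14, 0.883 and 0.598 FPKM in spleen. Adgre1, another macrophage receptor, had 0.266, 0.361 and 0.271 FPKM in islet, against 0, 0.174 and 0 FPKM in spleen. These values are near the level of a few fragments. Of 3 tested B cell markers Cd22 fell, listed at 0, 0.142 and 0.309 FPKM in islet, against 4.76, 4.21 and 5.99 FPKM in spleen (limma adjusted p 0.021). The B cell list summed to 2.13, 3.09 and 2.22 FPKM in islet, against 6.59, 5.65 and 11.3 FPKM in spleen. Cd22 is itself in these sums and supplies most of their difference, so they are no separate measure of such cells. The call of Cd22 did not hold when any 1 mouse was left out (limma adjusted p 0.11 to 0.158). Those of Camp and Hbb-b2 were lost without mouse 1 (limma adjusted p 0.18 and 0.0866). That of Tyrobp was lost without mouse 2 (limma adjusted p 0.0595). That of Car2 was lost without mouse 3 (limma adjusted p 0.068). Dendritic cell markers had 0 calls of 7 tested and summed to 253, 205 and 129 FPKM in islet, against 244, 151 and 171 FPKM in spleen. Endothelial and stromal markers had 0 calls of 5 tested and summed to 9.95, 37.4 and 13.1 FPKM in islet, against 2.49, 6.07 and 5.21 FPKM in spleen.

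**Figure D3:**
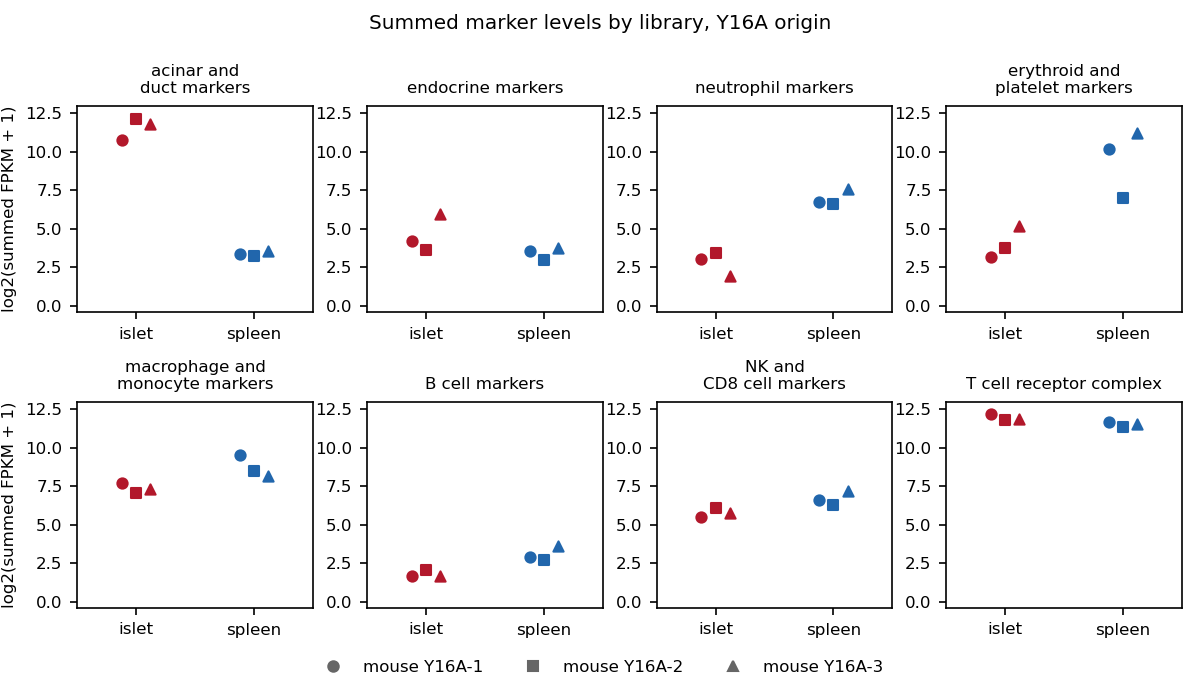
Summed marker level by library on a log2(summed FPKM + 1) scale, for 7 marker lists of other cells and the T cell receptor complex, with islet (red) left of spleen (blue) and a marker shape per mouse. Acinar markers sum to 1748 to 4564 FPKM in islet and 8.61 to 10.8 FPKM in spleen, while neutrophil and erythroid markers lie higher in spleen in 3 of 3 mice.

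The comparison with recipients of WT cells asks whether the islet and spleen difference depended on the origin of the cells. In WT origin 87 genes were called, 70 higher (0.697%) and 17 lower (0.169%) in islet. The genes called in the same direction in both origins numbered 66, which is 49.6% of the 133 and 75.9% of the 87. Of the 67 called in Y16A origin alone, 58 had the same sign in WT origin before the median shift was subtracted. On that scale the median of all tested genes was positive in both origins (0.235 in Y16A and 0.101 in WT), which favours equal signs. The share with equal signs over all tested genes was not computed. The limma test of the difference between the origins called 0 of 10044 genes (0%), with a smallest adjusted p of 0.413 and 535 genes at an unadjusted p under 0.05, so none of the changes above was shown to be particular to Y16A origin. Genes with unequal values are given side by side. Ctla4 had a log2 change of 3.59 in Y16A origin and 2.24 in WT origin (unadjusted interaction p 0.0148), where its WT values were 32.9, 28.8 and 52.9 FPKM in islet, against 4.19, 9.24 and 6.1 FPKM in spleen. Fos had 6.92 in Y16A origin and 5.39 in WT origin (unadjusted interaction p 0.0107), with WT values of 83.9, 92.7 and 206 FPKM in islet, against 2.07, 0.856 and 1.86 FPKM in spleen. Ccr8 had 2.88 in Y16A origin and 1.58 in WT origin, where it did not pass (adjusted p 0.0599). Ifng had 3.89 in Y16A origin and 4.02 in WT origin, with WT values of 119.999, 128 and 182 FPKM in islet, against 3.84, 13.6 and 5.92 FPKM in spleen. Magohb had -3.25 in Y16A origin and -0.16 in WT origin, with WT values of 17.3, 22.9 and 28.3 FPKM in islet, against 54.1, 16.1 and 12.8 FPKM in spleen. The adjusted interaction p was 0.914 for Ctla4, 0.914 for Fos and 0.764 for Magohb. Endocrine markers in islet summed to 17.3, 11.3 and 63.2 FPKM in Y16A origin and 405, 1092 and 33.4 FPKM in WT origin.

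**Figure D4:**
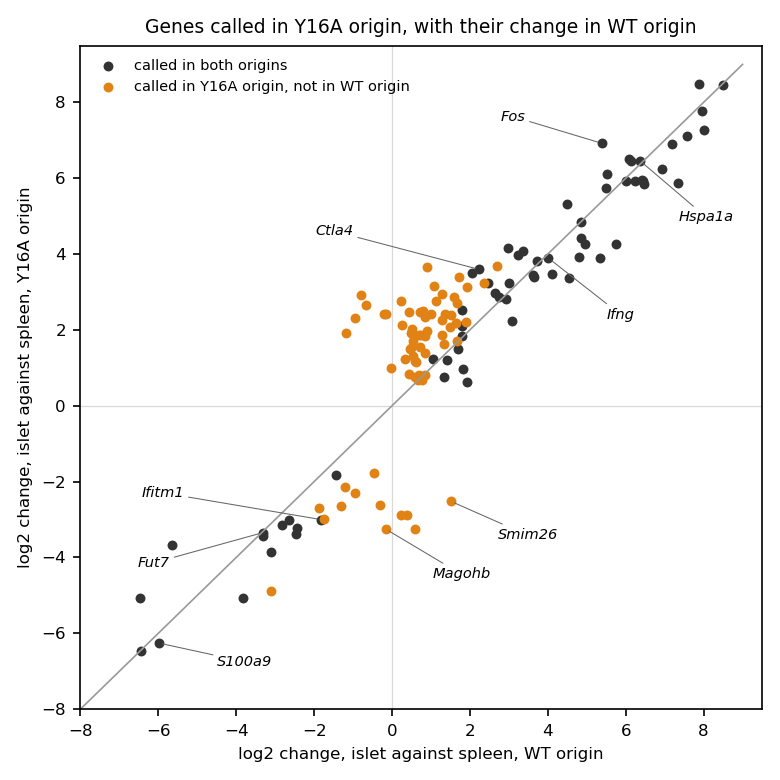
Log2 change, islet minus spleen, of the 133 genes called in Y16A origin (vertical axis) and of the same genes in WT origin (horizontal axis), each relative to its median shift, with the diagonal of equal change. Dark points are called in the same direction in both origins (66 genes) and orange points in Y16A origin alone (67 genes). Smim26 lies at -2.52 in Y16A origin, where its call did not hold when any 1 mouse was left out, and 1.51 in WT origin.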

How the data were processed

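RNA of 12 libraries was reverse transcribed, amplified and made into Nextera XT libraries, per the labels' protocols. The submitters' processing notes name TopHat 1.0.0, Cufflinks and the mm9 build as what the authors used. Their deposited matrix gives an FPKM value for each transcript in each library. The authors' table of islet Y16A against islet WT was not used here. Of 36285 entries 35986 (99.2%) matched a gene symbol through RefSeq accessions, and transcript FPKM were summed to 24274 genes. Depth was estimated from the steps of low values. The test was run in limma 3.58.1 (R 4.3.3, statmod 1.5.0; Python 3.11.15 and pandas 2.3.3 for tables, matplotlib 3.10.9 for figures) on log2(FPKM + 1), with a pseudocount of 1, which understates changes of low genes. The model held 6 mice as blocks and an islet-minus-spleen coefficient per origin (4 residual degrees of freedom), with an intensity trend, robust variances and Benjamini-Hochberg adjustment. The median shifts subtracted were 0.32 in Y16A origin and 0.16 in WT origin. On simulated data (5 runs of 10044 genes), log2 changes of 1.5 and 3 were planted only in genes with a mean log2 value above 3. There limma called 22.4% and 80.4% of them in the Y16A comparison. Of all its calls, 4.99% fell on genes without a planted change. Recovery in genes of lower level was not simulated. The titles pair islet and spleen by mouse. Deviations from the group means correlated within mice at 0.0445, 0.0138 and 0.0629 in Y16A origin over 4216 genes. Named genes were the 15 largest called changes in each direction with a mean of 5 FPKM or more, up to 4 members of each of 35 lists by smallest p, and a fixed set; other genes given values were chosen after those were seen. The comparison, its lists and its named genes were chosen with earlier results of these data known. Of 625 list entries 520 were tested. Promoters are RefSeq's on GRCm38.p6. The alternatives were another pseudocount (0.1), other filters (none, or a mean of 5 FPKM), median centring, quantile normalization, the highest transcript per gene, other block and variance models, Y16A libraries alone, and each mouse left out. Some members of the lists are counted in them and not reported here by name.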

Additional observations from a re-analysis of the deposited data

How the results depend on the processing

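Under 13 alternatives none of the 148 named genes tested reversed, and 34 of the 63 called kept their call under each one. Without a filter on low values 60 genes were called, 51 higher and 9 lower, all 60 among the 133. Quantile normalization gave 49 lower calls in place of 27. Leaving out 1 mouse gave 75 to 97 calls, 61 to 81 higher and 13 to 16 lower, of which 62 to 81 were among the 133. The difference between origins had 0 calls, and 0 to 1 with 1 mouse left out (1 without mouse 3). Without the replicate block 116 genes were called, 96 higher and 20 lower, 105 of them among the 133, and the calls of Gzma, Hbb-b1, Hbb-b2, Pdcd1, Pdlim4 and Rplp1 were lost; with the block as a random effect there were 134 calls. Other counts were 115 with a pseudocount of 0.1, 149 with a mean of 5 FPKM or more, 129 with the highest transcript, 93 without trend and robust variance and 117 with the Y16A libraries alone. The cause of these shifts was not tested. The 3 mice and a median standard error of 0.28 for genes above 50 FPKM limit what can be called. At planted log2 changes of 1.5 the simulation recovered 22.4%, without planting any in genes of low level.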

Other observations

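Of the 133 called genes 55 stood on no list, and those named next were chosen after their values were seen. Phlda1, a gene induced by receptor signals in T cells, had 31.2, 21.7 and 27.7 FPKM in islet, against 1.98, 1.45 and 0 FPKM in spleen (log2 change 3.51, limma adjusted p 3.55e-04). Lilrb4a, an inhibitory receptor of myeloid and activated T cells, had 48.96, 30.6 and 26.5 FPKM in islet, against 11.1, 1.97 and 7.13 FPKM in spleen (2.08, adjusted p 0.021). Furin, the proprotein convertase, had 55.7, 21.1 and 26.2 FPKM in islet, against 9.36, 4.42 and 5.27 FPKM in spleen (1.87, adjusted p 0.0121). Fth1, the ferritin heavy chain, had 2013, 1331 and 1478 FPKM in islet, against 797, 722 and 732 FPKM in spleen (0.75, adjusted p 0.00798). Hilpda, a lipid droplet protein induced by hypoxia, had 74.6, 96.3 and 104 FPKM in islet, against 26.96, 17.5 and 14.4 FPKM in spleen (1.88, adjusted p 0.0153), and the polyubiquitin gene Ubb 1273, 1131 and 910.003 FPKM in islet, against 508, 367 and 443 FPKM in spleen (1.002, adjusted p 0.0287). The interferon-inducible RNA AW112010 had 4584, 3214 and 3055 FPKM in islet, against 1524, 1530.2 and 1988 FPKM in spleen (0.77, adjusted p 0.023). The calls of Lilrb4a, Furin and Ubb did not hold when any 1 mouse was left out (limma adjusted p 0.0517 to 0.228). That of Fth1 was lost without mouse 1 (limma adjusted p 0.152). That of AW112010 was lost without mouse 1 (limma adjusted p 0.273), or without mouse 2 (limma adjusted p 0.126). That of Hilpda was lost without mouse 2 (limma adjusted p 0.131), or without mouse 3 (limma adjusted p 0.136).

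H2ac20 and H4c9, a pair of histone genes, were called higher. H2ac20 had 13.8, 37.8 and 10.1 FPKM in islet, against 3.43, 1.95 and 0 FPKM in spleen, and H4c9 had 16.3, 37.6 and 7.21 FPKM in islet, against 5.34, 0 and 0 FPKM in spleen (adjusted p 0.00747 and 0.0297). The histone gene H2bu2 was also called higher, with 6.65, 6.54 and 14.996 FPKM in islet, against 0, 0 and 9.05 FPKM in spleen (adjusted p 0.0436). H2bc4 was listed at 0 in islet and had 9.6, 2.4 and 11.3 FPKM in spleen (adjusted p 0.0216). The call of H2bc4 was lost without mouse 1 (limma adjusted p 0.173), or without mouse 3 (limma adjusted p 0.157). Those of H2ac20 and H4c9 were lost without mouse 2 (limma adjusted p 0.112 and 0.27), or without mouse 3 (limma adjusted p 0.0699 and 0.12). That of H2bu2 was lost without mouse 1 (limma adjusted p 0.333), or without mouse 2 (limma adjusted p 0.307). Smim26, which encodes a small membrane protein, had 1.73, 10.6 and 16.8 FPKM in islet, against 21.9, 37.7 and 59.99 FPKM in spleen in Y16A origin and 5.44, 28.3 and 25.6 FPKM in islet, against 1.59, 2.74 and 15.4 FPKM in spleen in WT origin. Its unadjusted interaction p of 8.23e-05 was the smallest of the 133 called genes and did not pass adjustment (0.413). Its call in Y16A origin (adjusted p 0.0433) did not hold when any 1 mouse was left out (limma adjusted p 0.131 to 0.369). The glucagon gene Gcg had 1.0, 0 and 0.453 FPKM in islet, against 8.82, 0.955 and 1.08 FPKM in spleen in Y16A origin, and 1.72, 20.6 and 10.98 FPKM in islet, against 0, 0.506 and 0 FPKM in spleen in WT origin.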
